A study of Mus musculus with 3 samples.

Results

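The genes described here are 8 cytokine genes of T cells, *Ifng*, *Tnf*, *Il2*, *Il3*, *Csf2*, *Il10*, *Lta* and *Ltb*, chosen by their symbols from the 33696 genes of the count tables. They were followed in intratumoral T cells by their level, by the share of cells with transcripts of each, and by the number of the 8 genes found in the same cell. All 3 libraries came from TCR transgenic pmel CD8+ T cells, which recognize the melanoma antigen gp100 and carry the Thy1.1 mark, transferred into irradiated (6 Gy) C57BL/6 mice on day 5 after injection of B16F10 melanoma. Before transfer the cells were grown with gp100 peptide and 10 nM cytokine, which was IL-2/21-Trikine, the IL-2 variant sIL-2, or the latter combined with IL-21 (called sIL-2 + IL-21). The engineered molecule IL-2/21-Trikine was built to bring the receptor of IL-21 into the receptor complex of IL-2. After transfer the mice received 4 doses of 2.5 μg every 48 h. IL-2/21-Trikine was injected where the cells had been grown with it. In both other groups the injected cytokine was sIL-2 without IL-21, so that by design they differed in the culture before transfer. Tumors were taken on day 18 and live Thy1.1+ CD8+ cells were sorted. Each condition is 1 library of 10x 3′ data, with no untreated library. How many mice went into each library is not given in the sources used here, and differences between mice or sorts and differences between treatments cannot be told apart.

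Cytokine genes are how a CD8+ T cell passes the recognition of antigen on to its surroundings. Signals from the T cell receptor reach them through factors such as NFAT and AP-1, transcription comes in short bursts in few cells at a time, and AU-rich elements in the 3′ UTR of many of these mRNAs recruit decay factors of the tristetraprolin and Regnase families. *Ifng* encodes interferon-γ, *Tnf* and *Lta* encode secreted members of the TNF family, and *Ltb* encodes lymphotoxin β, which holds lymphotoxin α at the cell surface. *Il2* encodes a T cell growth factor, *Il3* and *Csf2* (GM-CSF) act on myeloid cells, and *Il10* encodes a cytokine best known for restraining inflammation. Cells that make several of these products at once are called polyfunctional and are often seen as effective in the control of tumors.

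The sequences shared by these genes are given first, since their position and their mRNA ends group them in a way that the choice by symbol did not use. *Lta*, *Tnf* and *Ltb* lie side by side on chromosome 17, and *Il3* and *Csf2* lie side by side on chromosome 11, with 0 protein-coding genes between neighbours in RefSeq order. In the longest annotated 3′ UTR of each gene (GENCODE vM21, GRCm38), the pentamer ATTTA, the core of AU-rich elements, was found on the transcribed strand in 7 of the 8 genes. It occurred 9 times in the 317 bases of *Csf2*, 8 times in *Tnf*, 7 times in *Il2*, 6 times each in *Ifng* and *Il10*, 3 times in *Lta* and 1 time in the 101 bases of *Il3*. *Ltb* had 0 in 174 bases. Per kb *Il3* held 9.90, beside 9.51 in *Ifng*, so its low count goes with a short annotated 3′ UTR. Only annotated ends were searched, and a longer end of *Il3* was not looked for. Of all 20787 3′ UTRs searched, 65.6% held the pentamer, and 7.66% held the nonamer TTATTTATT, which contains it and which was found in *Tnf*, *Csf2*, *Il2* and *Lta*. The pentamers lay close together in 4 genes, whose 30-base window with the most of them is shown with ATTTA in capitals. The windows lie at chr11:54247329-54247358 (- strand) for *Csf2*, chr17:35199679-35199708 (- strand) for *Tnf*, chr3:37121040-37121069 (- strand) for *Il2* and chr10:118445330-118445359 (+ strand) for *Ifng*, all in the 3′ UTR (GRCm38).
Csf2: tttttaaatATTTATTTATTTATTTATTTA
Tnf: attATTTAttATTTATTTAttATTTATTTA
Il2: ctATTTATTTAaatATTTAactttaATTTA
Ifng: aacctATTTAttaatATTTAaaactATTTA

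Promoters of 7 of the 8 genes were matched in RefSeq (GRCm38.p6), each from 250 bases before to 50 bases after the start of transcription, and *Il10* had no entry. Those of *Il2*, *Il3*, *Ifng* and *Ltb* are shown 5′ to 3′ on the strand of the gene. *Il2* and *Il3* shared more cells than the product of their shares gives, and *Ltb* behaved differently from the rest. Capitals mark GGAAA, the core bound by NFAT, on either strand (TTTCC where it lies on the other strand) and TATAAA, the TATA box, on the strand of the gene. The regions are chr3:37125905-37126204 (- strand), chr11:54267230-54267529 (- strand), chr10:118440796-118441095 (+ strand) and chr17:35194257-35194556 (+ strand).
Il2: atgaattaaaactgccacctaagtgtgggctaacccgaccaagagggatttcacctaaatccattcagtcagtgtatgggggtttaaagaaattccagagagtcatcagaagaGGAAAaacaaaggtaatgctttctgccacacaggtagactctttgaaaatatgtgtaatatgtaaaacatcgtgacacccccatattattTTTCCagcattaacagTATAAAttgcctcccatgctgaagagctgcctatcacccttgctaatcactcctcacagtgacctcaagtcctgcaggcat
Il3: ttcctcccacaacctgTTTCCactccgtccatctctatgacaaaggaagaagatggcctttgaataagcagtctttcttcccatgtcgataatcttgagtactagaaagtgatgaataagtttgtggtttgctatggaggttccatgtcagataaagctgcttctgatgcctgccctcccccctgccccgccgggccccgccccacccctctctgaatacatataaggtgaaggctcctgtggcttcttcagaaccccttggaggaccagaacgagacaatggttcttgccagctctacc
Ifng: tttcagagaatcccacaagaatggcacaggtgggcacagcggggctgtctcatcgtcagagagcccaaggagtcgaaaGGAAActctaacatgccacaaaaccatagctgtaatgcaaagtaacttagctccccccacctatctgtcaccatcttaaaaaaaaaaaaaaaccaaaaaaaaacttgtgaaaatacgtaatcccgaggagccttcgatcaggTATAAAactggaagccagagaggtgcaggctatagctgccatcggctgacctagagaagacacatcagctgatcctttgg
Ltb: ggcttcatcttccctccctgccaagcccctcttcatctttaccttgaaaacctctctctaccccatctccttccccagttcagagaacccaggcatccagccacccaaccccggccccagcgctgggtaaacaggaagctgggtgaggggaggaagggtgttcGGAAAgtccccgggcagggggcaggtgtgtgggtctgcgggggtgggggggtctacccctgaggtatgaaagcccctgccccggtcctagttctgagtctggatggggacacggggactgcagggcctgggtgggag
All 7 promoters held GGAAA, with 3 matches in *Tnf*, *Csf2* and *Lta*, 2 in *Il2* and 1 in *Ifng*, *Il3* and *Ltb*, but so did 61.3% of all 32851 promoters. TATAAA was rarer, at 8.32% of all promoters, and began at positions -31, -30 and -29 from the start in *Il2*, *Ifng* and *Tnf*. In *Lta* it lay at -167, and *Il3*, *Csf2* and *Ltb* had no exact match. Near matches, such as TATAAG in the printed promoter of *Il3*, were not counted. The AP-1 motif TGANTCA, searched on both strands and held by 7.81% of all promoters, was found in 0 of the 7 windows.

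Below, 3 values in a row stand in the order sIL-2, then IL-2/21-Trikine, then sIL-2 + IL-21. The libraries held 7760, 13299 and 9798 kept cells, with 130200802, 166772854 and 168041089 UMIs. Median UMIs per cell were 12882.5, 10254 and 14055.5, so shares of cells were compared after drawing 2000 UMIs from every cell, which left out 266, 1775 and 364 shallower cells (3.43%, 13.3% and 3.72%). T cell markers (*Cd3d*, *Cd3e*, *Cd3g*, *Cd8a*, *Cd8b1*, *Thy1*) were found in 97.7% to 99.2% of cells, and *Cd4* was at 0.216 to 1.21 CPM (UMIs per 1000000 UMIs of the library). Summed melanoma markers were at 2.22 to 8.82 CPM, myeloid markers at 28.5 to 44.0 CPM and B cell markers at 1.72 to 2.38 CPM. Hemoglobin genes were at 68.7 CPM in sIL-2 and at 0.12 and 0.476 CPM in the other two, and their part in the results was not tested. Of the cell barcodes, 92 occurred in 2 libraries and 0 in all 3. No test between conditions could be made, since each is a single library. The 95% intervals below (exact Poisson for CPM, exact binomial for shares) cover counting error only.

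A gene was counted as higher or lower between libraries when its log2 ratio of CPM reached 0.5 in size, among genes with a mean of at least 1 CPM. *Il10* lay below that mean, so 7 of the 8 members were counted. In IL-2/21-Trikine against sIL-2, 4 of 7 were lower (*Ifng*, *Il2*, *Il3*, *Csf2*) and 0 were higher, where 7.42% of all 11275 genes were lower and 3.45% were higher. Against sIL-2 + IL-21, 2 of 7 were lower in IL-2/21-Trikine (*Il3*, *Csf2*) and 0 were higher, beside 5.66% and 4.65% of all genes. When the other two were set side by side, 1 of 7 was higher in sIL-2 than in sIL-2 + IL-21 (*Il2*) and 0 were lower, beside 11.3% and 7.29% of all genes. The median log2 ratio of the 7 genes was -0.50, -0.19 and 0.32 in the 3 comparisons, and that of all genes was -0.08, 0.00 and 0.08. The 3 comparisons share libraries, and sIL-2 enters both the first and the last.

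**Figure D1:**
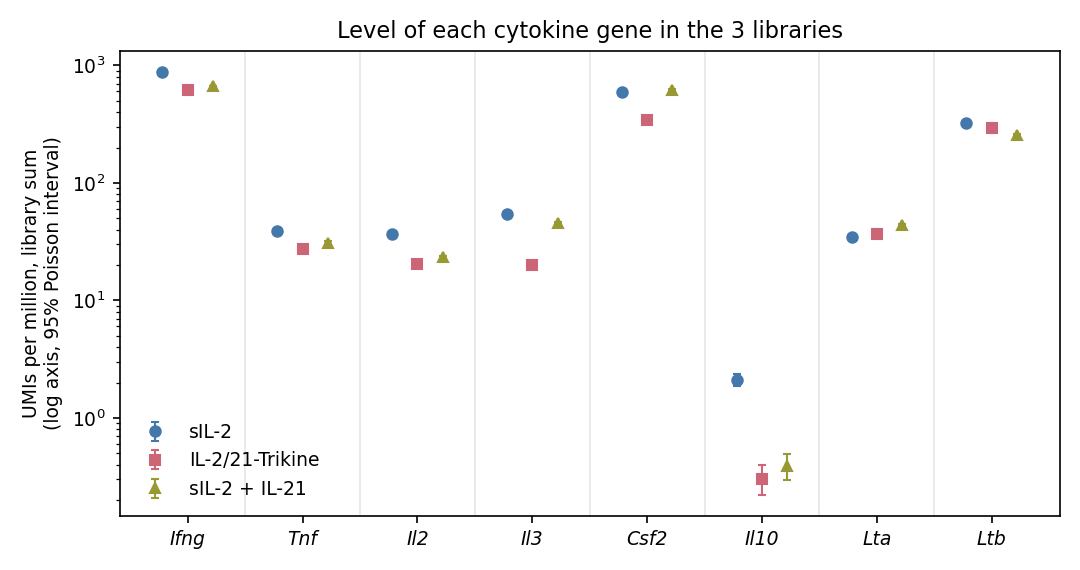
Level of the 8 cytokine genes in each library, as CPM over all kept cells on a log axis. Circles are sIL-2, squares IL-2/21-Trikine and triangles sIL-2 + IL-21, and bars are 95% Poisson intervals, mostly smaller than the symbols. The square is lowest for 6 of the 8 genes, and for *Lta* and *Ltb* it lies between the others.

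*Ifng* was at 875 CPM in sIL-2 (869 to 880), 617 CPM in IL-2/21-Trikine (614 to 621) and 665 CPM in sIL-2 + IL-21 (661 to 669). It was thus highest in sIL-2, and the difference of IL-2/21-Trikine from sIL-2 was a log2 ratio of -0.50, at the limit for counting. At 2000 UMIs the share of cells with *Ifng* did not separate sIL-2 from sIL-2 + IL-21. It was 28.8% in sIL-2 (27.8 to 29.8), 22.7% in IL-2/21-Trikine (21.9 to 23.5) and 29.1% in sIL-2 + IL-21 (28.2 to 30). The 2 groups injected with sIL-2 had about the same share of *Ifng* cells, with a ratio of 0.990 (0.945 to 1.04). The level was 0.39 higher in sIL-2 on the log2 scale. That fell to 0.14 on sums over cells drawn to 2000 UMIs and to 0.13 with each cell weighted equally. Under the same settings IL-2/21-Trikine over sIL-2 was -0.41 and -0.47. Over sIL-2 + IL-21 it moved from -0.11 to -0.27 and -0.34. Fewer cells held *Ifng* in IL-2/21-Trikine than in either group injected with sIL-2, with ratios of 0.787 and 0.780.

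*Csf2* showed the widest difference in share, in percentage points. Its level was 590 CPM in sIL-2 (586 to 594), 342 CPM in IL-2/21-Trikine (339 to 345) and 620 CPM in sIL-2 + IL-21 (616 to 624). The share of cells with *Csf2* was 22.5% (21.6 to 23.5), 18.9% (18.2 to 19.7) and 32.4% (31.5 to 33.4). In level sIL-2 and sIL-2 + IL-21 nearly met, at a log2 ratio of -0.07 (-0.09 to -0.06), but the share in sIL-2 was 0.695 times that in sIL-2 + IL-21 (0.660 to 0.731). Cells with *Csf2* held a mean of 4.47 of its UMIs in sIL-2, 3.06 in IL-2/21-Trikine and 3.44 in sIL-2 + IL-21, all after drawing 2000 UMIs. Cells with 10 or more of them made up 2.51%, 0.972% and 1.97%. Compared with sIL-2 + IL-21, the sIL-2 library thus had fewer *Csf2* cells with more *Csf2* in each, and IL-2/21-Trikine had the lowest value of all 3 measures.

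*Il3*, the neighbour of *Csf2*, was the gene furthest below the others in IL-2/21-Trikine among the 7 counted. It was at 54.0 CPM in sIL-2 (52.8 to 55.3), 20.1 CPM in IL-2/21-Trikine (19.5 to 20.8) and 45.5 CPM in sIL-2 + IL-21 (44.5 to 46.6). The log2 ratio of IL-2/21-Trikine was -1.42 against sIL-2 and -1.18 against sIL-2 + IL-21. The latter was -1.70 with each cell weighted equally and -1.74 on sums over cells drawn to 2000 UMIs. It was -2.81 without the 1% of cells richest in *Il3*. Those cells held 95.9% of *Il3* UMIs in IL-2/21-Trikine and 87.3% in sIL-2 + IL-21, so that value compares small and unequal remainders. Few cells carried *Il3*, at 1.17% (0.943 to 1.44), 0.755% (0.605 to 0.93) and 1.76% (1.5 to 2.05). As for *Csf2*, the share was smaller in sIL-2 than in sIL-2 + IL-21, although the level of *Il3* was higher in sIL-2. That order of levels was not kept under every setting. The log2 ratio of 0.25 became -0.37 with each cell weighted equally and -0.32 on sums over cells drawn to 2000 UMIs. Without the 1% of cells richest in *Il3* it was -1.31. Those cells held 95.7% of *Il3* UMIs in sIL-2 and 87.3% in sIL-2 + IL-21, so little was left to compare.

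*Il2* was at 36.7 CPM in sIL-2 (35.7 to 37.8), 20.5 CPM in IL-2/21-Trikine (19.8 to 21.2) and 23.3 CPM in sIL-2 + IL-21 (22.6 to 24.1). On the log2 scale IL-2/21-Trikine fell by 0.84 against sIL-2, and sIL-2 lay 0.66 above sIL-2 + IL-21. The shares of cells with *Il2*, 1.33% (1.09 to 1.62), 1.10% (0.920 to 1.31) and 1.06% (0.863 to 1.29), had overlapping intervals, so a difference in the share of *Il2* cells was not detectable at 2000 UMIs. At 5000 UMIs the share in sIL-2 was 1.36 times that in sIL-2 + IL-21 (1.09 to 1.70), and the ratio of IL-2/21-Trikine to sIL-2 was 0.823 (0.671 to 1.01). Without drawing to equal depth the latter was 0.613 (0.530 to 0.709). The higher level in sIL-2 over sIL-2 + IL-21 fell to 0.25 with each cell weighted equally.

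*Tnf* had the same order of levels as *Ifng*. It was at 38.7 CPM in sIL-2 (37.6 to 39.8), 27.6 CPM in IL-2/21-Trikine (26.9 to 28.5) and 31.1 CPM in sIL-2 + IL-21 (30.2 to 31.9). The log2 ratio of IL-2/21-Trikine over sIL-2 was -0.49, just inside the limit, and -0.62 on sums over cells drawn to 2000 UMIs. The shares of cells were 6.65% (6.09 to 7.23), 4.61% (4.23 to 5.01) and 5.49% (5.04 to 5.97), highest in sIL-2 and lowest in IL-2/21-Trikine. The ratio of IL-2/21-Trikine to sIL-2 + IL-21 was 0.839 (0.746 to 0.944), but 0.921 (0.818 to 1.04) with another random seed.

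The lymphotoxin genes did not have that order. *Lta* was at 34.7 CPM in sIL-2 (33.7 to 35.7), 36.7 CPM in IL-2/21-Trikine (35.8 to 37.7) and 43.5 CPM in sIL-2 + IL-21 (42.6 to 44.6). At 2000 UMIs the intervals of its shares overlapped at 5.27% (4.78 to 5.80), 5.82% (5.40 to 6.27) and 5.86% (5.40 to 6.35). At 5000 UMIs the share of *Lta* cells in IL-2/21-Trikine was 1.13 times that in sIL-2 (1.04 to 1.23). *Ltb* was at 325 CPM in sIL-2 (322 to 328), 295 CPM in IL-2/21-Trikine (292 to 298) and 256 CPM in sIL-2 + IL-21 (254 to 259). It was in 45.2% (44.1 to 46.3), 43.9% (43.0 to 44.8) and 40.5% (39.5 to 41.5) of cells. In level *Ltb* was thus lowest in sIL-2 + IL-21 and *Lta* was highest there, although both are neighbours of *Tnf*. The log2 ratio of *Lta* in IL-2/21-Trikine over sIL-2 + IL-21 was -0.25, and -0.21 with each cell weighted equally. On sums over cells drawn to 2000 UMIs it was -0.02, so there *Lta* was about level in these libraries.

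*Il10* was nearly absent outside a handful of cells. Its UMIs numbered 275 in sIL-2, 50 in IL-2/21-Trikine and 65 in sIL-2 + IL-21, or 2.11, 0.300 and 0.387 CPM. In sIL-2, 4 cells with 73, 60, 49 and 15 UMIs held 197 of the 275, and the UMIs of the other cells came to 0.599 CPM. These cells, singled out after their values were seen, had UMIs of all 6 T cell marker genes and of at most 1 of the 18 myeloid marker genes. The first also held 213 *Ifng* and 36 *Csf2* UMIs and the next 166 and 102. The cells in ranks 4, 5, 7, 8, 9 and 10 by *Il10* UMIs held 2 to 8 UMIs of *Foxp3*, the factor of regulatory T cells. All of these also held *Cd8a* and *Cd8b1* UMIs, and only the cell in rank 5 held *Cd4* (2 UMIs). The cells in ranks 1, 2, 3 and 6 held 0 *Foxp3* UMIs. In IL-2/21-Trikine each of the 50 UMIs was in a different cell.

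**Figure D2:**
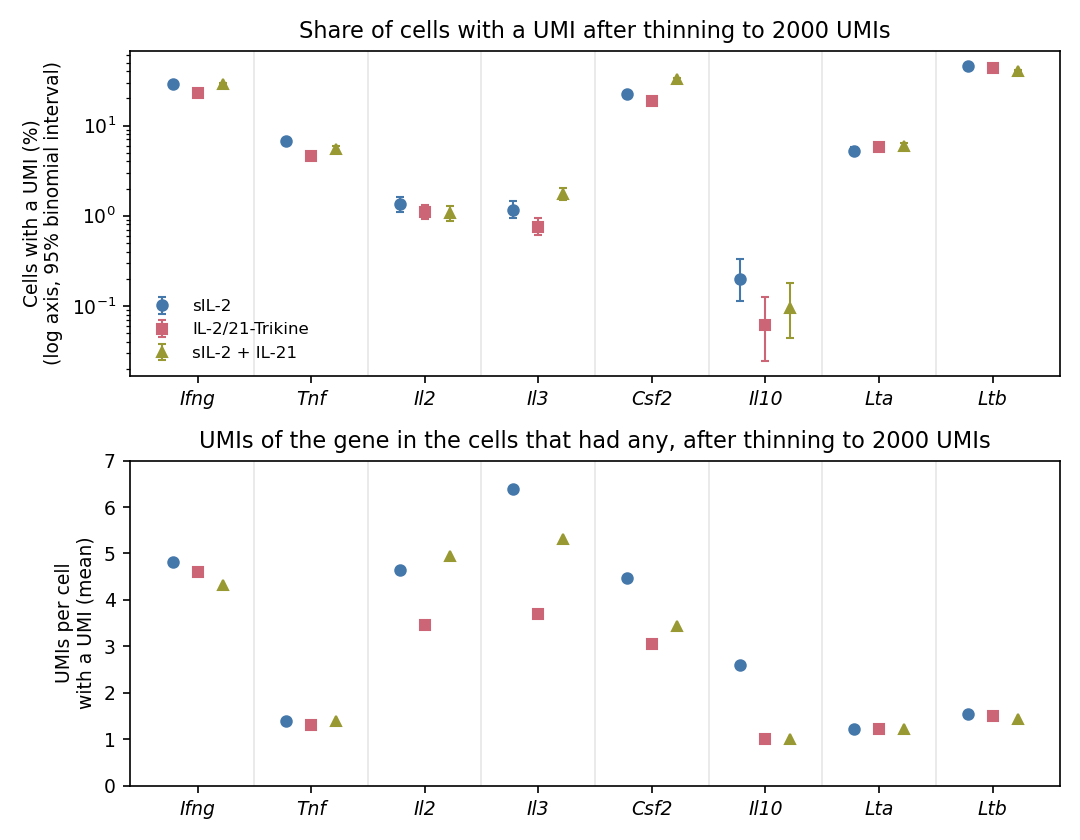
Share of cells with at least 1 UMI of each gene (upper, log axis, 95% binomial intervals) and mean UMIs of the gene in those cells (lower), both after drawing 2000 UMIs per cell, for sIL-2 (circles), IL-2/21-Trikine (squares) and sIL-2 + IL-21 (triangles). For *Csf2* and *Il3* the triangle is highest in the upper panel and the circle in the lower one.

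Without equal depth the shares were larger. *Ifng* was found in 57.3%, 44.7% and 60.7% of cells, *Csf2* in 44.0%, 35.8% and 57.2%, and *Ltb* in 87.2%, 77.3% and 85.9%. *Tnf* was found in 26.7%, 17.5% and 24.3%, *Lta* in 23.5%, 20.2% and 27.6%, *Il2* in 4.38%, 2.68% and 3.07%, *Il3* in 3.25%, 1.89% and 4.06% and *Il10* in 0.760%, 0.376% and 0.643%. For *Ltb* the order of the last 2 libraries turned over, with a ratio of IL-2/21-Trikine to sIL-2 + IL-21 of 0.899 without drawing and 1.09 with it. For *Lta* the ratio of IL-2/21-Trikine to sIL-2 was 0.861 (0.817 to 0.908) without drawing and 1.10 (0.979 to 1.25) with it. Free RNA from broken cells can give such UMIs in cells that do not transcribe a gene. The sort left few other cells to measure it by. In 114 cells with UMIs of at least 3 myeloid markers (median 24195 UMIs, against 12876.5 for all cells), *Ifng* was in 27.2%, *Csf2* in 22.8%, *Ltb* in 32.5%, *Tnf* in 11.4%, *Lta* in 6.14%, *Il2* and *Il3* in 1.75% each and *Il10* in 0%, which allows up to 3.18%, after drawing 2000 UMIs. Most of these cells also held T cell markers. In the 9 of them without any T cell marker, *Ifng*, *Csf2*, *Ltb*, *Lta*, *Il2* and *Il3* were each in 0 cells and *Tnf* in 1. The part of free RNA in the shares was not settled by so few cells and was not tested further.

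The genes differed in how their UMIs were spread over cells. The 1% of cells richest in *Il2* held 92.5% of its UMIs in sIL-2, 93.0% in IL-2/21-Trikine and 93.9% in sIL-2 + IL-21, and for *Il3* the values were 95.7%, 95.9% and 87.3%. For *Ltb* they were 5.97%, 6.50% and 6.06%. *Il2* and *Il3* thus came from a small number of cells in every library and *Ltb* from a broad set. *Ifng* lay between, with 36.8%, 48% and 34.8%, as did *Csf2* with 28.0%, 31.0% and 19.7%, *Tnf* with 27.0% to 29.0% and *Lta* with 24.6% to 27.2%. For *Ifng* and *Csf2* the values were highest in IL-2/21-Trikine and lowest in sIL-2 + IL-21. All values of this paragraph were taken over all kept cells without drawing to equal depth, and median UMIs per cell ran in the reverse order. The part of depth in that order was not tested. A total of 9, 18 and 15 cells held 50% of all *Il2* UMIs of their library, and 10, 13 and 29 cells held 50% of all *Il3* UMIs. A single cell of sIL-2 held 716 UMIs of *Il2*, 15.0% of that library's total, and a single cell of IL-2/21-Trikine held 528 of *Il3*, or 15.7%. The richest *Ifng* cell of each library held 1665, 1201 and 1082 UMIs of it, which were 3.62%, 6.92% and 2.6% of all UMIs of that cell.

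**Figure D3:**
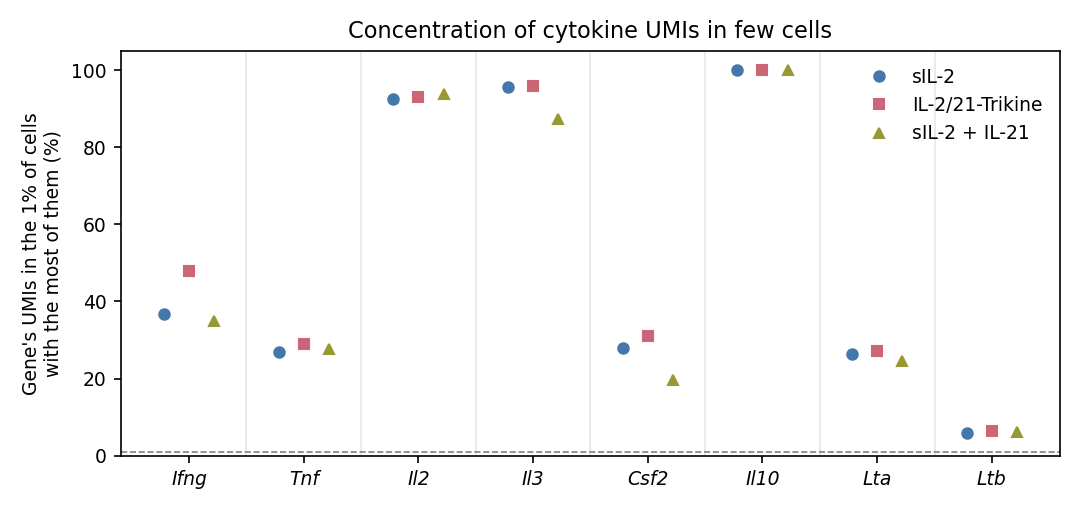
Percentage of each gene's UMIs that lay in the 1% of cells with the most of them, for sIL-2 (circles), IL-2/21-Trikine (squares) and sIL-2 + IL-21 (triangles), with a dashed line at 1%, the value for an even spread. *Il2* and *Il3* lie at 87.3% or more and *Ltb* at 6.50% or less, and *Il10* lies at 100% because under 1% of cells held any. All kept cells were used, without drawing to equal depth.

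The rare *Il2* and *Il3* cells overlapped. The 1% of cells with the most *Il2* and the 1% with the most *Il3* shared 25 of 75 cells in sIL-2, 20 of 116 in IL-2/21-Trikine and 35 of 95 in sIL-2 + IL-21. *Ifng* and *Il3* shared 25, 30 and 42 cells of the same sets, and *Ifng* and *Il2* shared 27, 28 and 33. *Csf2* and its chromosomal neighbour *Il3* shared 12, 25 and 26 cells, more than *Il2* and *Il3* in IL-2/21-Trikine and fewer in the other two. *Tnf* and *Lta* shared 15, 13 and 7 cells. *Ltb* shared 0 cells with *Il3* in every library and 0 to 2 cells with *Ifng*, where unrelated sets of this size would share 1% of their cells. With *Lta* it shared 5.33%, 6.90% and 6.32% of the cells, and with *Tnf* 2.67%, 9.48% and 2.11%, above that value. Shallow cells with few UMIs can rank high for more than 1 gene, so the 1% is only a guide. The part of depth in these overlaps was not tested.

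*Il2* and *Il3* also overlapped when any UMI was counted. Cells with both *Il2* and *Il3* outnumbered the product of their shares 19.6 times in sIL-2 (23 cells), 15.6 times in IL-2/21-Trikine (15 cells) and 21.0 times in sIL-2 + IL-21 (37 cells). This ratio can rise much further for a pair of rare genes than for a pair with a common gene such as *Ifng*, so its size does not rank such pairs. Among *Il3* cells, 26.1%, 17.2% and 22.3% held *Il2*. For *Ifng* with *Il3* the ratio was 2.56, 3.85 and 2.90, and 73.9%, 87.4% and 84.3% of *Il3* cells held *Ifng*. For *Ifng* with *Il2* it was 2.71, 3.12 and 2.72. Of *Il2* cells, 78.0%, 70.9% and 79.0% held *Ifng*. *Tnf* with *Il2* gave 4.51, 4.44 and 4.37, and the more common pair *Ifng* with *Csf2* gave 1.68, 1.74 and 1.49. Only the pairs with *Ltb* fell below 1 among the pairs without *Il10*, with *Ifng* at 0.959, 0.912 and 0.947 and *Il3* at 0.754, 0.785 and 0.789, though *Tnf* and *Lta* with *Ltb* were above 1 in every library. Drawing 5000 UMIs gave 11.3, 10.9 and 14.4 for *Il2* with *Il3*. The ratios are descriptions within a library. Doublets were not called, and their part in these counts was not tested.

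**Figure D4:**
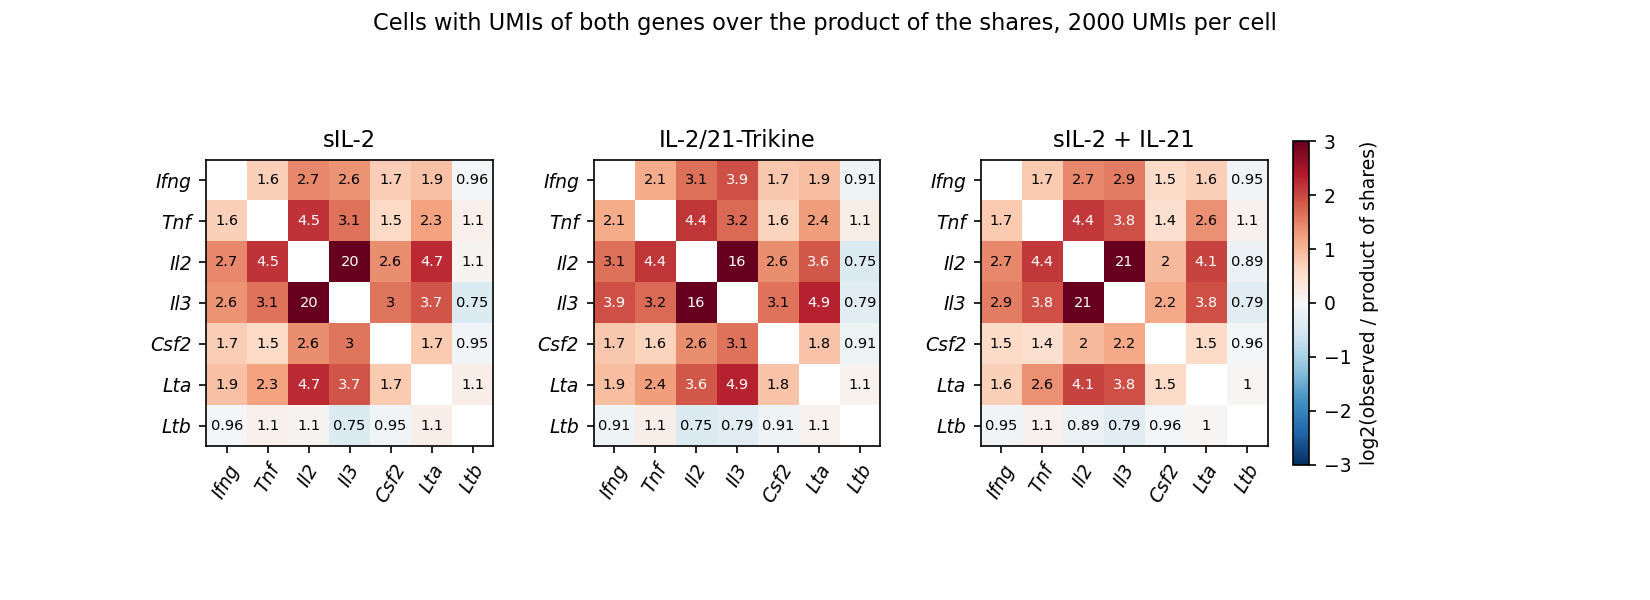
Number of cells with UMIs of both genes over the number given by the product of their shares, for 7 genes (*Il10* left out) in each library after drawing 2000 UMIs per cell. Red marks values above 1 and blue below 1 on a log2 color scale that ends at 3 either way, with the ratio printed in each square. *Il2* with *Il3* is the darkest pair in every library, at 15.6 to 21.0.

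Across all measured genes, those most like a member from cell to cell were chemokines and other members. Likeness was Pearson's r of log(1 + UMIs) over cells drawn to 5000 UMIs, averaged over the 3 libraries, among 5533 genes, and all genes of a cell share its RNA content. The highest values were *Ccl3* for *Ifng* (0.63), followed by *Ccl4* (0.56) and *Ccl1* (0.43). For *Csf2* they were *Ccl1* (0.44), *Ifng* (0.36) and *Ccl3* (0.32). *Ccl3* and *Ccl4* encode chemokines for other T cells and myeloid cells, and *Ccl1* encodes a ligand of CCR8. For *Tnf* they were *Ccl4* (0.32), *Ccl3* (0.30) and *Ifng* (0.27), and for *Lta* *Ccl3* (0.26), *Ifng* (0.23) and *Xcl1* (0.22). *Il2* and *Il3* had each other first (0.32), closely followed by *Ccl3* (0.29) and *Ifng* (0.28) for *Il2* and by *Ifng* and *Ccl3* (0.31 each) for *Il3*. That order was not kept in every library. The r of *Il2* with *Il3* was 0.40, 0.22 and 0.35, and in IL-2/21-Trikine *Ccl3* and *Ifng* were nearer to both. In sIL-2 + IL-21 they were nearer to *Il3* than *Il2* was. *Ltb* had none of these genes among its nearest, which were *Shisa5* (0.20), *Epsti1* (0.19) and *Cd52* (0.18), and *Il10* had no gene at 0.15 or more.

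The number of the 8 genes per cell, at 2000 UMIs, was lowest in IL-2/21-Trikine. The mean was 1.11 in sIL-2, 0.979 in IL-2/21-Trikine and 1.16 in sIL-2 + IL-21. Cells with at least 2 of the genes made up 29.1% (28.1 to 30.2), 23.3% (22.5 to 24.1) and 31.6% (30.6 to 32.5). The ratio of these shares of IL-2/21-Trikine to sIL-2 was 0.8 (0.762 to 0.840). Of IL-2/21-Trikine to sIL-2 + IL-21 it was 0.738 (0.706 to 0.771), and when sIL-2 was set against sIL-2 + IL-21 it was 0.922 (0.880 to 0.966). At this depth the 2 groups injected with sIL-2 were thus closer to each other than either was to IL-2/21-Trikine. Cells with at least 3 genes made up 9.05%, 6.27% and 9.68%, and cells with at least 4 made up 2.04%, 1.52% and 2.48%. Cells with none of the 8 made up 29.7%, 33.6% and 28.2%, and no cell held all 8 at this depth.

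**Figure D5:**
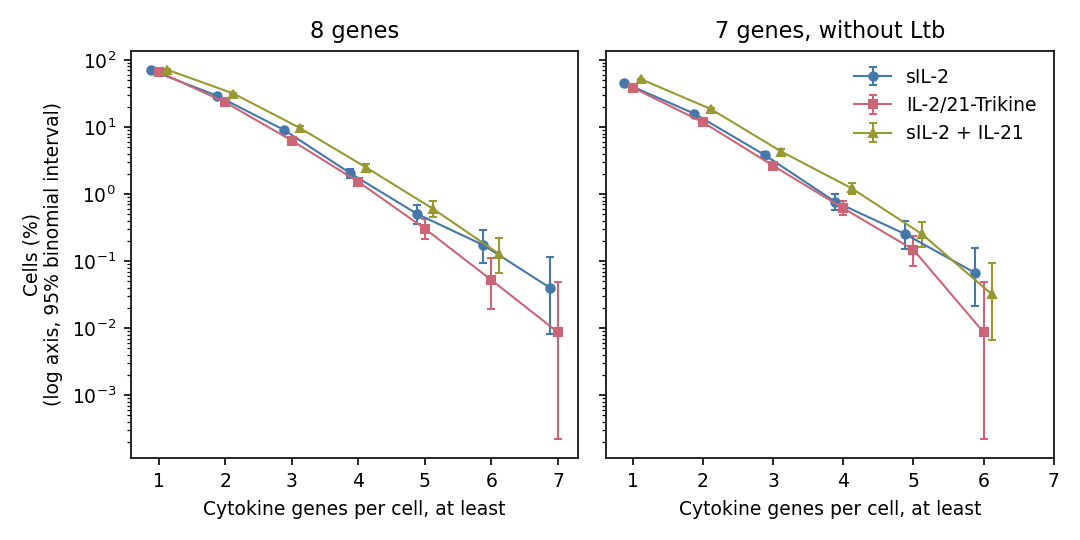
Percentage of cells with at least the given number of cytokine genes after drawing 2000 UMIs per cell, on a log axis with 95% binomial intervals, for all 8 genes (left) and without *Ltb* (right). The IL-2/21-Trikine line (squares) runs lowest from at least 1 to at least 5 genes in both panels, and from at least 4 genes on its intervals overlap those of sIL-2.

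*Ltb*, which was in most cells that held only 1 gene (60.7%, 64.3% and 50.2% of them), took up much of these counts. Without it, cells with at least 2 genes made up 15.8%, 11.8% and 18.4%, and the ratios became 0.751, 0.643 and 0.856. After drawing 5000 UMIs and without *Ltb* the shares were 28.0% (27.0 to 29.1), 22.9% (22.1 to 23.7) and 34.7% (33.7 to 35.7). There sIL-2 lay closer to IL-2/21-Trikine in percentage points than to sIL-2 + IL-21. Cells with at least 3 of all 8 genes mostly held *Ifng* (89.5%, 89.1% and 89.9%), *Csf2* (78.5%, 74.8% and 86.3%) and *Ltb* (76.1%, 75.5% and 73.3%), and less often *Tnf* (34.2%, 33.1% and 29.7%) or *Lta* (30.5%, 37.3% and 30.3%). *Il3* was in 14.5% of such cells in sIL-2 + IL-21, against 9.73% in sIL-2 and 8.85% in IL-2/21-Trikine. *Ifng* together with *Csf2* was in 10.9% (10.2 to 11.6), 7.47% (7 to 7.97) and 14.0% (13.3 to 14.8) of all cells. The proteins of *Ifng*, *Tnf* and *Il2* together are a usual definition of a polyfunctional T cell, whereas only transcripts were counted here. The combination of the 3 transcripts was in 0.374% (0.248 to 0.540), 0.208% (0.133 to 0.310) and 0.223% (0.138 to 0.340). Its 28, 24 and 21 cells left the intervals overlapping. After drawing 5000 UMIs the shares were 0.920% (0.714 to 1.17), 0.503% (0.378 to 0.656) and 0.664% (0.506 to 0.855), with no overlap between sIL-2 and IL-2/21-Trikine.

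*Ifng*, *Tnf* and *Csf2* were more common in cells with antigen-signal genes in every library. Antigen-signal genes (*Nr4a1*, *Nr4a3*, *Egr1*, *Egr2*, *Egr3*), which rise after T cell receptor signaling, were found in 61.6% of cells of sIL-2, 47.0% of IL-2/21-Trikine and 49.3% of sIL-2 + IL-21. Cells with them held *Ifng* in 35.0%, 30.3% and 35.6%, and cells without them in 18.9%, 16.0% and 22.8%. *Tnf* was in 8.32%, 6.96% and 7.93% of cells with these genes and in 3.96%, 2.52% and 3.12% without. The 465, 439 and 495 *Il2* UMIs left after drawing came from only 100, 127 and 100 cells, so few cells set how they divide. Of these UMIs, 95.7%, 77.2% and 91.5% lay in cells with antigen-signal genes. *Ltb* did not follow them upward in sIL-2 or IL-2/21-Trikine, at 44.2% and 43.4% with them and 46.8% and 44.4% without, whereas in sIL-2 + IL-21 it was in 42.9% with and 38.1% without.

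The order of the libraries was kept among cells with antigen-signal genes for *Ifng* and *Csf2*, but not for *Csf2* among cells without them. *Csf2* was in 28.5% (27.2 to 29.8), 22.8% (21.7 to 24.0) and 38.0% (36.6 to 39.4) of cells with these genes. In cells without them it was in 13.0% (11.7 to 14.2), 15.5% (14.6 to 16.4) and 27.0% (25.8 to 28.3), so that IL-2/21-Trikine was above sIL-2. *Il3* was highest in sIL-2 + IL-21 among cells with antigen-signal genes, at 3.05% (2.58 to 3.59), against 1.52% and 1.22%. *Csf2* was thus more widespread in sIL-2 + IL-21 on either side of this division.

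*Havcr2* (TIM-3), the terminal marker, was found in 19.1%, 8.13% and 19.4% of cells. Cells with it held *Ifng* in 38.6% (36.1 to 41.2), 35.1% (32.1 to 38.3) and 38.5% (36.2 to 40.7), overlapping between the libraries. Cells without it held *Ifng* in 26.5% (25.4 to 27.6), 21.6% (20.8 to 22.4) and 26.8% (25.8 to 27.8), lowest in IL-2/21-Trikine. Here and for the antigen-signal genes above, a cell without a marker is one with none of it among its drawn UMIs. Cells that express a marker can thus be counted as without it. *Havcr2* was at 148, 58.9 and 146 CPM, so the number of such cells can differ between libraries. The same holds for *Tcf7*, at 60.3, 59.9 and 21.7 CPM. The part of such cells in the shares without a marker was not tested. *Tcf7*, the stem-like marker, was found in 12.3%, 11.6% and 5.97% of cells, and in cells with it the shares with *Ifng* were 18.4% (15.9 to 21.1), 15.6% (13.7 to 17.7) and 17.8% (14.7 to 21.2). *Ltb* was slightly more common in cells with *Tcf7*, at 48.7%, 48.4% and 49.7%, than in cells without, at 44.7%, 43.3% and 39.9%, with overlapping intervals in sIL-2 (45.4 to 52.0 and 43.5 to 45.9). Dividing cells (at least 2 of *Mki67*, *Top2a*, *Cdk1*, *Birc5* and *Ccnb1*) made up 9.62%, 17.2% and 23.0%. They held *Il3* in 0.555% (0.151 to 1.41), 0.302% (0.111 to 0.657) and 0.646% (0.354 to 1.08), and other cells in 1.24% (0.990 to 1.53), 0.849% (0.675 to 1.05) and 2.09% (1.77 to 2.45). *Csf2* was in 24.1% (21.1 to 27.4), 21.3% (19.5 to 23.1) and 36.8% (34.8 to 38.9) of dividing cells, and in 22.4% (21.4 to 23.4), 18.4% (17.7 to 19.2) and 31.2% (30.1 to 32.2) of other cells. In sIL-2 the intervals overlapped for both genes. In the other two libraries dividing cells had the lower share for *Il3* and the higher share for *Csf2*. These markers and the libraries differ together, and their part in the differences between libraries was not tested.

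Lists of related genes are given by the same count. Of 22 transcription factors of cytokine genes, 9 were lower and 0 higher in IL-2/21-Trikine than in sIL-2, beside 7.42% and 3.45% of all genes. In sIL-2 against sIL-2 + IL-21, 8 were higher and 0 lower, beside 11.3% and 7.29%. Against sIL-2 + IL-21, 1 was higher and 3 were lower in IL-2/21-Trikine, beside 4.65% and 5.66%. These shares of all genes are the background for the counts of each list below too. The list's median log2 ratio was -0.42, -0.04 and 0.42 in IL-2/21-Trikine against sIL-2, in IL-2/21-Trikine against sIL-2 + IL-21 and in sIL-2 against sIL-2 + IL-21, and that of all genes was -0.08, 0.00 and 0.08. *Maf*, a factor that acts on *Il10* among other genes, was at 21.4 CPM in sIL-2 and 8.50 CPM in IL-2/21-Trikine. *Eomes*, a T-box factor that acts on *Ifng*, was at 11.8, 4.95 and 2.64 CPM in the 3 libraries, and *Nfatc1*, an NFAT factor, was at 111 CPM in sIL-2 and 57.9 CPM in sIL-2 + IL-21. *Prdm1* (Blimp-1) and *Runx3* were lower in IL-2/21-Trikine than in sIL-2 + IL-21, at log2 ratios of -1.08 and -0.63. Many of these factors also drive other programs of T cells.

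Of 10 regulators of cytokine mRNA decay, 2 were lower in IL-2/21-Trikine than in sIL-2, 1 was higher than in sIL-2 + IL-21, and 3 were higher in sIL-2 than in sIL-2 + IL-21, with 0 in the other directions and medians of -0.31, 0.09 and 0.39 in the order of comparisons above. *Zfp36* (tristetraprolin), known to bind AU-rich elements such as those of *Tnf* and *Csf2*, was at 87.1 CPM in sIL-2, 50.6 CPM in IL-2/21-Trikine and 46.5 CPM in sIL-2 + IL-21. *Zc3h12a* (Regnase-1) was at 46.1 CPM in sIL-2 and 30.1 CPM in IL-2/21-Trikine, and *Zfp36l1* was at 246, 190 and 119 CPM. In CPM *Zfp36* and *Zfp36l1* were thus highest in sIL-2, as were *Ifng*, *Tnf*, *Il2*, *Il3*, *Il10* and *Ltb*, which has no ATTTA in its 3′ UTR. *Il3* did not keep that place under every setting, and most *Il10* UMIs of sIL-2 lay in 4 cells. *Csf2* and *Lta*, which have it, were highest in sIL-2 + IL-21. A link between these levels was not tested.

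Of 11 receptor genes of these cytokines counted (14 listed), 3 were lower and 0 higher in IL-2/21-Trikine than in sIL-2, 0 passed the limit against sIL-2 + IL-21, and 2 were higher in sIL-2 than in sIL-2 + IL-21, the latter near the share of all genes. The medians were -0.26, 0.17 and 0.36. *Il10ra*, a chain of the receptor of IL-10, was at 33.9, 19.4 and 15.2 CPM. *Il2rb*, the β chain that IL-2 signals through, was at 497 CPM in sIL-2 and 327 CPM in IL-2/21-Trikine, and *Tnfrsf1b*, a TNF receptor, was at 68.4 CPM in sIL-2 and 41.2 CPM in sIL-2 + IL-21. Of 14 target genes of interferon-γ counted (16 listed), 1 was lower in IL-2/21-Trikine than in sIL-2, 7 were higher in IL-2/21-Trikine than in sIL-2 + IL-21 and 9 were higher in sIL-2 than in sIL-2 + IL-21, with medians of -0.19, 0.53 and 0.58. *Cxcl10* was at 61.4, 54.2 and 25.4 CPM and *Iigp1* at 13.9, 8.16 and 4.46 CPM. Both were lowest in sIL-2 + IL-21. *Ifng* itself was at 875, 617 and 665 CPM and in 28.8%, 22.7% and 29.1% of cells, so it was lowest in IL-2/21-Trikine. The order of these targets was thus not that of *Ifng*. Many targets of this list also respond to type I interferon.

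Of 12 other cytokine genes of T cells counted (20 listed), 4 were lower and 0 higher in IL-2/21-Trikine than in sIL-2, 3 were lower and 3 higher than in sIL-2 + IL-21, and 2 were lower and 5 higher in sIL-2 than in sIL-2 + IL-21, with medians of -0.42, 0.08 and 0.42. *Il13*, a type 2 cytokine, was at 9.25, 1.29 and 5.01 CPM, and *Il4*, another, was at 1.65, 0.785 and 2.46 CPM. In CPM *Il13* thus had the same order of libraries as *Il3* and *Tnf*, an order that *Il3* did not keep under every setting. *Tnfsf8* (CD30 ligand) was at 365, 260 and 123 CPM and *Tnfsf14* (LIGHT) at 25.4, 15.2 and 10.1 CPM, both lowest in sIL-2 + IL-21, and *Tnfsf11* (RANKL) was at 145 CPM in sIL-2 and 236 CPM in sIL-2 + IL-21.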

How the data were processed

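Libraries of sorted intratumoral T cells were made with 10x 3′ Gene Expression v3.1 reagents. The deposited files hold the authors' UMI counts of each gene in each cell, from Cell Ranger (version 9.0.0 in the study's methods), limited to called cells and not normalized. The methods name GRCm39 and the submitters' processing notes name mm10, so no coordinate was taken from the count files. Cells with 500 to 120000 UMIs and at most 20% mitochondrial UMIs were kept (30857 of 31026). Levels are UMIs summed over a library and scaled to CPM. Shares were taken after drawing 2000 UMIs per cell without replacement with a fixed seed. Intervals are exact Poisson (CPM), exact binomial (shares), exact conditional binomial (log2 ratios) and on the log scale (ratios of shares), and all are for counting error only, since PCR and cell sampling add more. No test between conditions was made with 1 library per condition. Counting and drawing were tested on simulated data. Doublets were not called.

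The genes named were the 8 members, from each fixed list the 2 highest and 2 lowest log2 ratios past 0.5 per comparison, and the 3 genes most like each member (mean r at least 0.15, genes of at least 20 CPM). The members and lists were chosen with earlier results of these data known. Promoters came from RefSeq (GRCm38.p6) and 3′ UTRs of at least 30 bases from GENCODE vM21. Python 3.11.15, numpy 2.4.6, scipy 1.17.1, pandas 2.3.3 and matplotlib 3.10.9 were used.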

Additional observations from a re-analysis of the deposited data

How the results depend on the processing

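No paired analysis was possible because each condition is 1 library and the labels give no replicate numbers. The number of members past 0.5 in size stayed within 1.5 times of the 4 counted in IL-2/21-Trikine against sIL-2 (3 to 5 under the alternatives run) and stayed at the 2 counted against sIL-2 + IL-21. The genes behind the 4 were not always the same. With each cell weighted equally *Ifng* was at -0.47 and *Tnf* at -0.53, and on sums over cells drawn to 2000 UMIs they were at -0.41 and -0.62. In both settings *Tnf* thus took the place of *Ifng*. When sIL-2 was set against sIL-2 + IL-21, the count of 1 became 0 with each cell weighted equally and with sums over cells drawn to 2000 UMIs, and 2 without the 1% of cells with the most UMIs of the gene. For *Il2* and *Il3* that 1% of cells held most of the UMIs, so this last setting compared what little was left of them. The ratio of shares of cells with at least 2 members kept its side of 1 in all alternatives. Drawing 1000 UMIs gave 0.729 for IL-2/21-Trikine against sIL-2 and 0.662 against sIL-2 + IL-21, and drawing 5000 gave 0.870 and 0.786. Leaving out *Ltb* gave 0.751, 0.643 and, with sIL-2 set against sIL-2 + IL-21, 0.856, and asking for at least 3 members gave 0.693 and 0.648. The cause of these moves was not tested. The ratio of shares of *Ltb* cells of IL-2/21-Trikine to sIL-2 + IL-21 turned from 1.09 to 0.899 without drawing to equal depth, where IL-2/21-Trikine cells had fewer UMIs. The ratio of shares of *Il10* cells of sIL-2 to those of sIL-2 + IL-21 was 2.10 with the seed used and 1.12 with another. For *Lta* cells of IL-2/21-Trikine against sIL-2 + IL-21 it was 0.993 (0.891 to 1.11) and 0.881 (0.790 to 0.981). Of 189 alternative values for single log2 ratios, 124 moved by less than their counting interval and 65 by more. Some of the latter changed sign, such as *Il3* in sIL-2 over sIL-2 + IL-21, from 0.25 to -0.37 with each cell weighted equally. Of 168 for single shares the numbers were 148 and 19, and the remaining 1 was the *Ltb* ratio above. Among the 19 was the ratio of *Lta* cells of IL-2/21-Trikine to sIL-2, from 1.10 to 0.861 without drawing. Depth limits the shares of *Il2*, *Il3* and *Il10*, and 1 library per condition limits every comparison.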
